A study of Mus musculus with 12 samples.

Results

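The genes described here encode 10 plasma proteins that the liver makes and that carry hormones, vitamins, metals or other ligands in blood. They are Alb, Ttr, Rbp4, Gc, Ahsg, Fetub, Ambp, Trf, Afm and Hpx, taken by gene symbol from the deposited liver table of 21683 genes. All 10 passed the filter on low counts, which kept 12459 genes for testing. Hepatic RNA was sequenced from 12 wild-type F1 male mice, 6 with DCHP-exposed sires (paternal DCHP) and 6 with vehicle-treated sires (paternal control). DCHP is dicyclohexyl phthalate, a plasticizer. The sires were 8 weeks old at the start and received DCHP in corn oil, or corn oil alone, by daily oral gavage for 4 weeks, and were then mated with unexposed females. The F1 males of both groups were weaned at 3 weeks and fed a Western-type high-fat diet for 9 weeks, so that the livers came from mice 12 weeks old and no mouse on normal chow was included. The strain was C57BL/6J. Neither sires nor litters were given for the livers, so the tests take the 12 animals as independent although some may be littermates.

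Carrier proteins leave the hepatocyte by the secretory pathway and keep poorly soluble or reactive ligands in solution. Transthyretin (Ttr) carries thyroxine and also binds the retinol carrier Rbp4, which keeps that small protein from being lost through the kidney. Several of these proteins change in abundance during inflammation: in most mammals albumin and transthyretin are negative acute-phase proteins, while hemopexin is a positive one. The study compared the groups to find hepatic transcriptomic changes in offspring of exposed sires, and the question here is how far the messages of these carriers differed.

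Alb, Gc and Afm belong to the albumin gene family and lie on chromosome 5 of the GRCm38 assembly, Gc at chr5:89417522-89457898 on the minus strand, Alb at chr5:90460897-90476602 and Afm at chr5:90518932-90553543 on the plus strand. Ahsg and Fetub, the fetuin pair, are neighbours on the plus strand of chromosome 16, at chr16:22891277-22899449 and chr16:22918334-22939778. The others lie apart. Rbp4 is at chr19:38116629-38125281, Ambp at chr4:63143275-63154799, Trf at chr9:103204001-103230444 and Hpx at chr7:105591613-105600137, all on the minus strand.

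Start-site windows (250 bases before to 50 after the start) came from a set built on RefSeq. The set held windows for 8 of the 10 genes and none for Ttr and Trf, which says nothing of their annotation in RefSeq. The window of Alb is shown because it holds letters that some transcription factors can bind, and the messages of those factors were measured in the same livers. Binding itself was not measured. Capitals mark TTATGTAA or its reverse complement TTACATAA, a sequence that PAR bZIP factors (Dbp, Tef, Hlf) and C/EBP factors can bind.
Alb, chr5:90460620-90460919, plus strand: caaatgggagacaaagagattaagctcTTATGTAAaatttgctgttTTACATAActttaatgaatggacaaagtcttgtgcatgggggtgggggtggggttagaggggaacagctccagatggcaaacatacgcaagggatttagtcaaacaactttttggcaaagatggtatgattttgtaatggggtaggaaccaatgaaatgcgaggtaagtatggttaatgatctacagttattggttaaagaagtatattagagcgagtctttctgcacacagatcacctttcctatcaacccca
The Alb window held 2 TTATGTAA matches, at bases -223 and -204 from the start site. Alb alone among the 8 carrier genes had this sequence, which 0.938% of the 32851 windows of that set (GRCm38.p6) held. TTCNNNGAA, the spacing bound by STAT factors, was in none of the 8 and in 8.3% of all windows. Both strands were read, and these matches describe letters only.

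None of the 10 carriers passed the study's thresholds of FDR below 0.1 and fold change above 1.5, which 159 of the 12459 tested genes did (1.28%, with 0.963% higher and 0.313% lower). Ttr was the single carrier whose FDR was below 0.1 at any fold (3.84% of tested genes, 2.29% higher and 1.56% lower), and the single one whose groups did not overlap (2.14% of tested genes). Rbp4, the protein that Ttr holds in plasma, had a similar difference with a wider error. Unadjusted p was below 0.05 for those 2 genes, against 18.9% of tested genes. The log2 fold changes of the carriers were negative for 6 and positive for 4, where 51.5% of tested genes were positive, and their median was -0.02, against 0.01 over all tested genes. For 9 of the 10 carriers the 95% interval lay inside a 1.5-fold change in either direction. The interval of Hpx reached past it.

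Transthyretin, encoded on chromosome 18, was lower in each paternal DCHP liver than in any paternal control liver. Its normalised read count, in counts per 1e6 counts (CPM) scaled by edgeR's TMM factors, was 3381 at the lowest, 3606 at the median and 3977 at the highest in paternal DCHP livers, against 4183, 4406 and 4699 CPM in paternal control livers. The highest exposed liver (DCHP 4) thus stood under the lowest control (control 6), and all 6 DCHP livers lay under the control range, as for 1.24% of tested genes. The means were 3618 ± 223 CPM in paternal DCHP livers and 4422 ± 205 CPM in paternal control livers (SD, n = 6 each), a log2 fold change of -0.29 ± 0.07 (SE) with a 95% interval of -0.44 to -0.14. By edgeR's quasi-likelihood test this gave a Benjamini-Hochberg adjusted p = 0.0675, and Ttr ranked at 186 of the tested genes by p. In linear terms Ttr was 18.2% lower, so it stayed short of the 1.5-fold threshold. In bulk liver RNA the share of hepatocytes was not measured, and its part in the Ttr difference was not tested. All 10 hepatocyte markers had a positive log2 fold change (median 0.16), and none was called. Their summed level was 27884 to 39242 CPM in paternal DCHP livers and 25154 to 32057 CPM in paternal control livers. For Ttr the direction was then compared between fits. The direction of Ttr held under all 27 alternative analyses (-0.33 to -0.21), but the FDR did not. The edgeR adjusted p exceeded 0.1 when any 1 of control 3, 4, 5 or 6 (0.134, 0.127, 0.141 and 0.122) or DCHP 5 (0.105) was left out, and it reached 0.197 with a log2 fold change of -0.21 once a trend on gene length and GC content was removed.

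**Figure D1:**
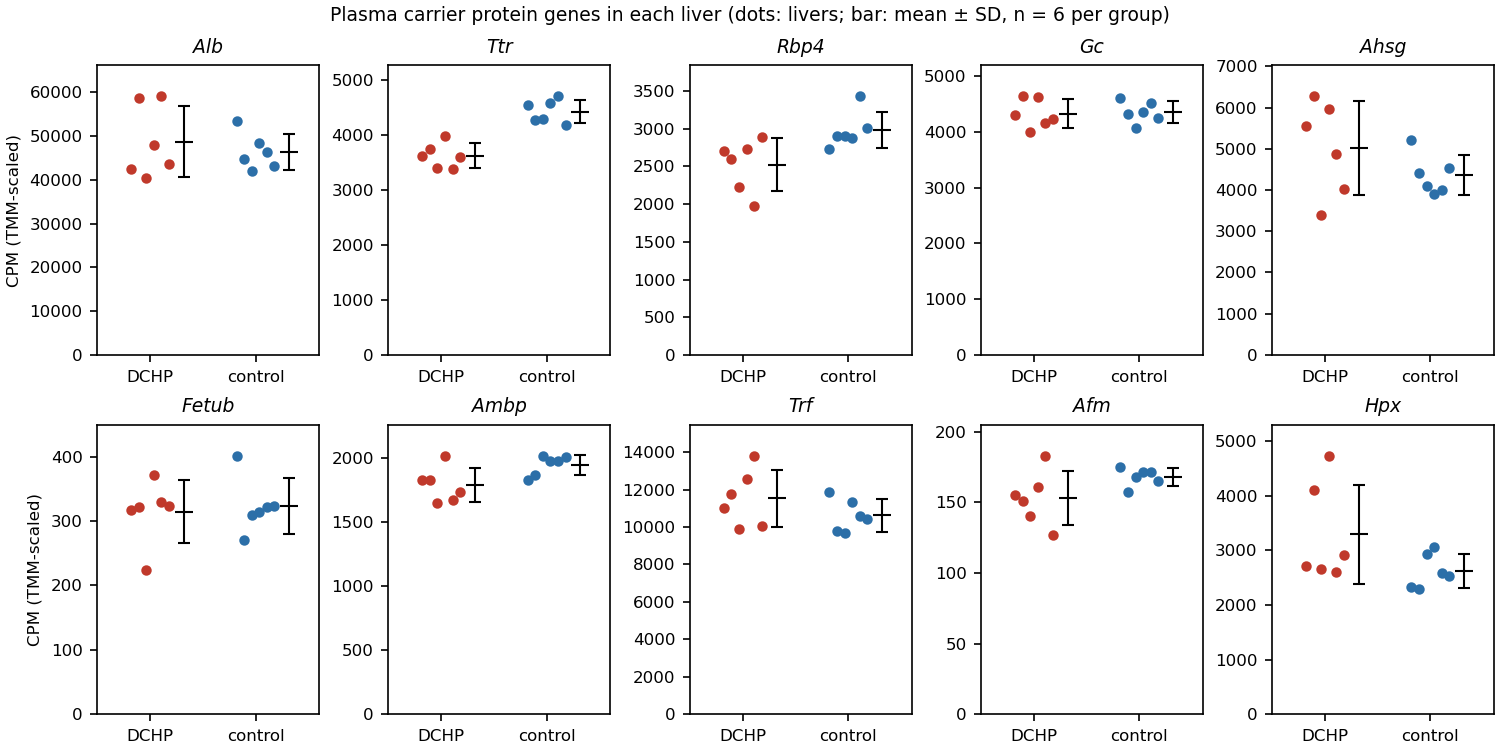
Normalised read count (CPM, TMM-scaled, from 0) of each carrier gene in the 12 livers, paternal DCHP left and paternal control right; dots are livers in order of replicate number and bars are mean ± SD (n = 6 per group). The groups separate for Ttr (at most 3977 against at least 4183 CPM), while the other 9 genes overlap and Hpx has 2 high DCHP livers at 4739 and 4108 CPM.

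Retinol-binding protein 4, the carrier that takes vitamin A from the liver to other tissues, had 1974, 2653 and 2895 CPM (lowest, median and highest) in paternal DCHP livers, against 2738, 2906 and 3431 CPM in paternal control livers. Of the 6 DCHP livers, 5 lay under the control range, DCHP 5 and DCHP 3 furthest, and DCHP 6 lay within it. DCHP 4 and DCHP 1, at 2730.5 and 2711 CPM, nearly touched the lowest control at 2738 CPM. The means were 2522 ± 350.1 CPM in paternal DCHP livers and 2978 ± 239 CPM in paternal control livers (SD, n = 6 each), a log2 fold change of -0.24 ± 0.10 (SE) that did not pass the edgeR test (adjusted p = 0.212). The number of Rbp4 reads for each Ttr read was therefore much the same, 0.696 ± 0.0764 in paternal DCHP livers and 0.674 ± 0.0496 in paternal control livers (SD, n = 6 each).

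Gc encodes vitamin D-binding protein, which also clears actin from plasma. It had the smallest difference of the 10. Its values ran from 3997 to 4635 CPM around a median of 4268 in paternal DCHP livers, and from 4071 to 4607 CPM around 4332 in paternal control livers. The 2 ranges lay nearly on top of each other, and the 95% interval of the log2 fold change (-0.16 to 0.14, edgeR adjusted p = 0.962) leaves out a change of 1.5-fold. Gc and Ttr had the same biological coefficient of variation, 10.6%, at percentiles 8.34 for Ttr and 7.78 for Gc among tested genes.

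Because Gc and Ttr were both precise, their ratio within a library shows the Ttr difference without any scaling between libraries. Each paternal DCHP liver had 0.807 to 0.861 Ttr reads for each Gc read, against 0.984 to 1.05 in paternal control livers, and the groups did not overlap. The mean ratios were 0.837 ± 0.0219 in paternal DCHP livers and 1.02 ± 0.0335 in paternal control livers (SD, n = 6 each). Set against each of the 9 other carriers in turn, Ttr had the lower mean ratio in paternal DCHP livers in all 9, without overlap for 4 (Gc, Ambp, Trf and Hpx). For Ambp the groups nearly touched, at most 2.07 in paternal DCHP livers and at least 2.08 in paternal control livers. These ratios share the Ttr counts, which separated the groups by themselves. They are given as a description, and no share over other genes was computed. The ratio to Rbp4 differed least, 1.45 ± 0.162 in paternal DCHP livers and 1.49 ± 0.112 in paternal control livers (SD, n = 6 each).

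**Figure D2:**
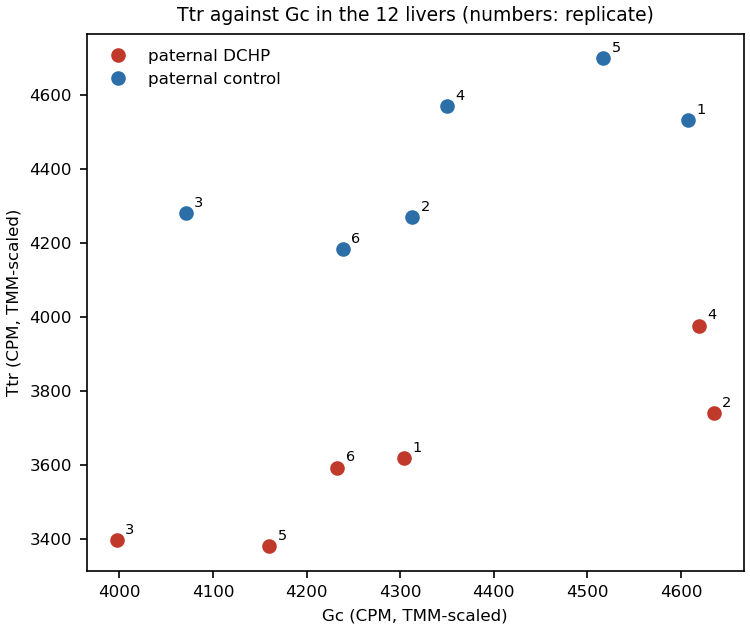
Ttr against Gc (both CPM, TMM-scaled, axes not from 0) in the 12 livers, with replicate numbers beside the points. Within each group Ttr tended to be higher where Gc was higher, and the 6 paternal DCHP livers lie in a band below the 6 paternal control livers (0.807 to 0.861 against 0.984 to 1.05 Ttr reads per Gc read).

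Albumin, which carries fatty acids, bilirubin and many drugs, was the gene with the most reads in this liver table. It took 4.81 ± 0.898% of all counts in paternal DCHP livers and 4.69 ± 0.359% in paternal control livers (SD, n = 6 each). Alb levels were 40510.1, 45855 and 59058 CPM (lowest, median and highest) in paternal DCHP livers, against 41977, 45557 and 53381 CPM in paternal control livers. The medians were close and 2 DCHP livers, DCHP 2 and DCHP 5, lay above all controls. The log2 fold change of 0.07 ± 0.12 (SE) did not pass the edgeR test (adjusted p = 0.768). Afamin, the vitamin E-binding member of the family, was the least abundant of the 10. It had 153 ± 19.3 CPM in paternal DCHP livers and 168 ± 6.24 CPM in paternal control livers (SD, n = 6 each). The narrow control range of 157 to 175 CPM had 4 DCHP livers under it and 1 above it, at 183 CPM, and the edgeR adjusted p was 0.39.

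Of the fetuins, Ahsg (fetuin-A, which binds calcium phosphate and inhibits the insulin receptor kinase) spread widely. Its levels were 3401, 5214 and 6276 CPM (lowest, median and highest) in paternal DCHP livers, against 3915, 4257 and 5223 CPM in paternal control livers. Above the control range stood 3 DCHP livers, and below it stood DCHP 3, so the log2 fold change of 0.20 ± 0.14 (SE) did not pass the edgeR test (adjusted p = 0.455). Fetub (fetuin-B, an inhibitor of the egg protease ovastacin) averaged 315 ± 48.9 CPM in paternal DCHP livers and 324 ± 43.2 CPM in paternal control livers (SD, n = 6 each), with an edgeR adjusted p of 0.88. DCHP 3, at 224 CPM, was low for Fetub too, while the other 5 DCHP livers ran from 318 to 372 CPM. Ambp, the precursor of the heme-binding alpha-1-microglobulin and of the protease inhibitor bikunin, averaged 1789 ± 135 CPM in paternal DCHP livers and 1946 ± 78.2 CPM in paternal control livers (SD, n = 6 each). For Ambp 5 DCHP livers were below the control range, though DCHP 1 and DCHP 2, at 1829 CPM, nearly touched the lowest control at 1830.2 CPM, and DCHP 4 was within it. The log2 fold change of Ambp was -0.12 ± 0.07 (SE) and did not pass the edgeR test (adjusted p = 0.36).

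The iron carrier Trf and the heme carrier Hpx leaned higher in paternal DCHP livers, as did Alb and Ahsg. Ambp, whose product alpha-1-microglobulin also binds heme, did not. Transferrin (Trf), which brings iron to cells, had 11525 ± 1521 CPM in paternal DCHP livers and 10624 ± 869.6 CPM in paternal control livers (SD, n = 6 each). DCHP 5 and DCHP 4 lay above the control range, at 13821 and 12584 CPM, and the edgeR adjusted p was 0.538. Hemopexin (Hpx), which binds free heme, had 2605, 2821 and 4739 CPM (lowest, median and highest) in paternal DCHP livers, against 2293, 2562 and 3059 CPM in paternal control livers. DCHP 4 and DCHP 2 stood apart, at 4739 and 4108 CPM, and the other 4 DCHP livers lay inside the control range. The log2 fold change of 0.33 ± 0.15 (SE) was the largest in size of the 10 and also the least certain, with a 95% interval of -0.0014 to 0.65 and an edgeR adjusted p of 0.265.

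**Figure D3:**
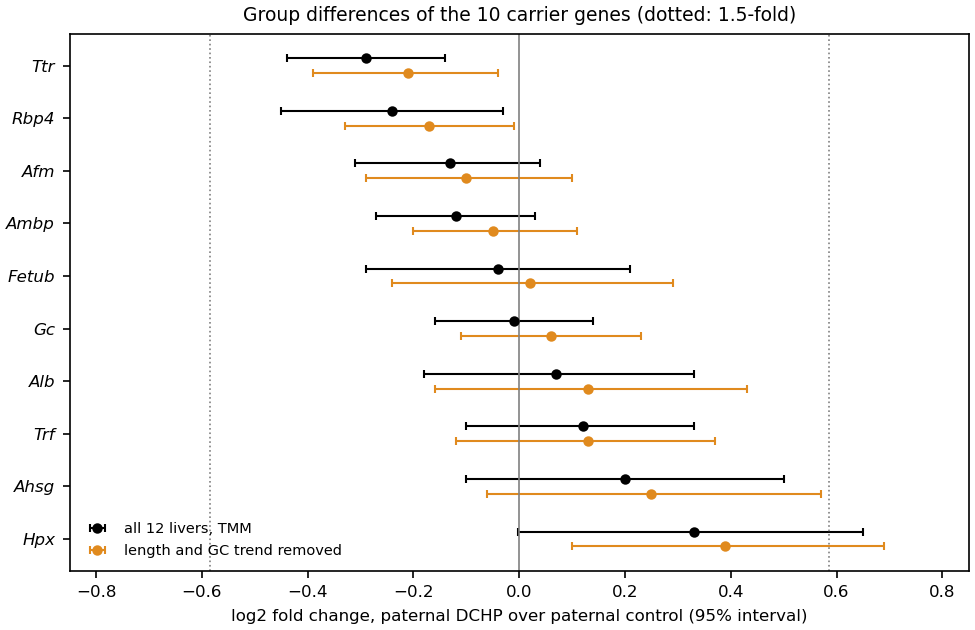
Log2 fold changes (paternal DCHP over paternal control) of the 10 carrier genes with 95% intervals, in black from the edgeR fit on all 12 livers and in orange after a trend on exonic length and GC content was removed; dotted lines mark 1.5-fold. Ttr (-0.29, then -0.21) and Rbp4 (-0.24, then -0.17) lie to the left of 0 in both, Gc and Fetub change sign, and Hpx lies furthest to the right (0.33, then 0.39).

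Levels of different genes were compared per kilobase of exon. On that scale Alb led with 20295 CPM per kilobase over all livers, followed by Ttr at 3389.8 and Trf at 3336. Split by group, Ttr had 3051 ± 188 CPM per kilobase in paternal DCHP livers and 3729 ± 173 in paternal control livers, and Trf had 3471 ± 458 in paternal DCHP livers and 3200.0 ± 262 in paternal control livers (SD, n = 6 each). The order of Ttr and Trf thus differed between the groups, and in paternal DCHP livers they lay within 1 SD of Trf. Gc (2351), Ahsg (2135), Rbp4 (2048) and Hpx (1974 CPM per kilobase) came next over all livers, and their order was not the same in the 2 groups. It was Gc (2344), Ahsg (2284), Hpx (2196) and Rbp4 (1878) in paternal DCHP livers, against Gc (2357), Rbp4 (2217), Ahsg (1987) and Hpx (1752 CPM per kilobase) in paternal control livers. Neighbours in that order lay within the larger of their SDs in paternal DCHP livers, and in paternal control livers this held for Gc and Rbp4 only. Ambp (1325), Fetub (163) and Afm (52.8 CPM per kilobase) were lower still. Together the 10 genes took 8.02 ± 1.17% of all counts in paternal DCHP livers and 7.92 ± 0.456% in paternal control livers (SD, n = 6 each). The coefficient of variation between livers was larger in the paternal DCHP group for all 10, as it was for 68% of tested genes and 79.6% of the 814 genes at least as abundant as Afm.

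Libraries held 23794752 to 30445332 counts. The carriers were set beside measures of the libraries, and of 50 such relations 2 had an adjusted p of r below 0.05, both with the length measure given after the first. The first was an acute-phase score, the mean centred log2 CPM of 22 acute-phase genes, 6 of which were called, all higher, and all 22 of which had a positive log2 fold change (median 0.64). The score was -0.0801 to 1.74 in paternal DCHP livers and -0.728 to -0.173 in paternal control livers, and DCHP 4 held the highest value, with DCHP 1 next at 0.24. Called acute-phase genes included Mt2 (metallothionein), Steap4 (metalloreductase), Socs3 (cytokine signalling inhibitor) and Apcs (serum amyloid P), at 3.07-fold, 2.83-fold, 2.9-fold and 1.6-fold and edgeR adjusted p-values of 0.0701, 0.074, 0.0807 and 0.0807. These calls were not stable when livers were left out: no gene of the list was called without any 1 of control 1, 3, 4, 5 or 6, or without DCHP 4 and DCHP 5 together, and 1 was called without DCHP 4 alone. Calls over all genes fell as well, from 159 to 105, 7, 33, 38 and 33 without control 1, 3, 4, 5 and 6. The log2 fold changes of the 4 named genes stayed positive in all alternative fits (Mt2 1.18 to 1.78, Steap4 0.74 to 1.65, Socs3 0.81 to 1.76, Apcs 0.50 to 0.76). Hpx followed the score within the paternal DCHP group (r = 0.79, exact permutation p = 0.0458, n = 6) and not detectably within the paternal control group (r = 0.26, exact permutation p = 0.671, n = 6). With DCHP 4 and control 1 left out, r over the other 10 livers was 0.38. DCHP 2, the second liver with high Hpx, had a score of 0.205, near that of DCHP 1, whose Hpx was 2721 CPM. Ttr, which was lower in the group with the higher score, was higher in DCHP livers with a higher score (r = 0.84, exact permutation p = 0.0194, n = 6). Within paternal control livers r was -0.36 (exact permutation p = 0.508, n = 6). Over all 12 livers Ttr gave r = -0.38 (permutation p = 0.242) and rho = -0.66 (permutation p = 0.0228, adjusted p = 0.285). With control 1 and DCHP 4 left out, its r was -0.79. None of the 10 relations between carriers and this score had an adjusted p below 0.05 over all 12 livers, among 50 relations tested.

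The second measure was the Spearman correlation of a library's log2 CPM deviations with exonic length, where a positive value means that long genes ran high. It was -0.0667 to 0.393 in paternal DCHP livers, highest in DCHP 5 and DCHP 3, and -0.285 to 0.0129 in paternal control livers. Rbp4, with 1343 exonic bases, was lower where this measure was higher across the 12 livers. Its r was -0.91 (permutation p = 0.00012, adjusted p = 0.006 over 50 relations) and its rho -0.85 (permutation p = 0.00091, adjusted p = 0.0455). Without DCHP 3 and DCHP 5 r was -0.70. Within groups r was -0.92 in paternal DCHP livers and -0.70 in paternal control livers (exact permutation p = 0.0236 and 0.0431, n = 6 each). Ambp gave r = -0.84 (permutation p = 0.00065, adjusted p = 0.0162) and rho = -0.68 (permutation p = 0.019, adjusted p = 0.285), and r = -0.62 without DCHP 3 and DCHP 5. For Ttr, with 1186 exonic bases the shortest of the 10, r was -0.86 within paternal DCHP livers and 0.26 within paternal control livers (exact permutation p = 0.0306 and 0.661, n = 6 each). Markers of other cell types were counted as well. All 10 Kupffer cell markers had a positive log2 fold change (median 0.53), none was called, and their summed level was 216 to 665 CPM in paternal DCHP livers and 183 to 292 CPM in paternal control livers. The highest Kupffer scores were those of DCHP 5 and DCHP 6, and no carrier was related to this score at an adjusted p below 0.05. Of 5 neutrophil markers 2 passed the filter on low counts, with a summed level of 2.39 to 6.83 CPM over the list in paternal DCHP livers and 0.989 to 2.18 CPM in paternal control livers, and Ly6g had 0 counts in each group. S100a9 was called higher, at 1.19 ± 0.761 CPM in paternal DCHP livers and 0.321 ± 0.185 CPM in paternal control livers (SD, n = 6 each, edgeR adjusted p = 0.095), and Csf3r had 2.13 ± 1.09 CPM in paternal DCHP livers and 1.22 ± 0.301 CPM in paternal control livers (edgeR adjusted p = 0.177). The part of these measures in the Ttr and Rbp4 differences was not tested beyond the fits that removed the length trend or left out those livers. Without DCHP 4 and DCHP 5 the log2 fold change of Ttr was -0.30 (edgeR adjusted p = 0.143).

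**Figure D4:**
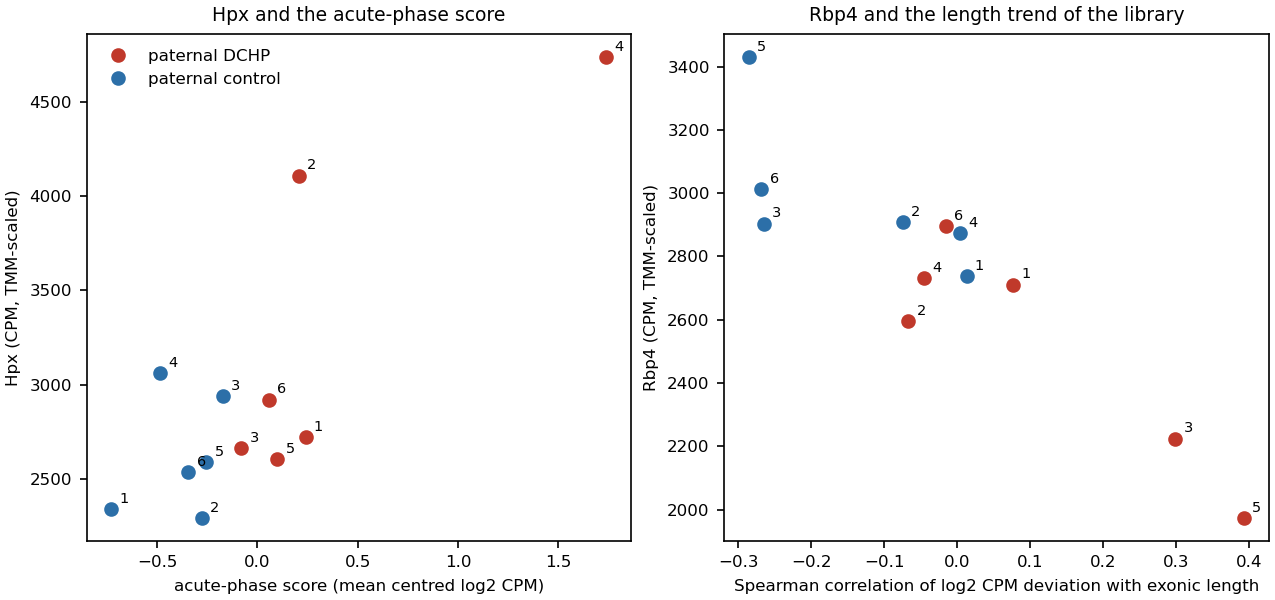
Left, Hpx (CPM) against the acute-phase score of each liver; right, Rbp4 (CPM) against the Spearman correlation of log2 CPM deviations with exonic length; red is paternal DCHP, blue is paternal control, and numbers are replicates. Hpx was highest in DCHP 4 (4739 CPM, score 1.74), and Rbp4 was lowest in DCHP 5 (1974 CPM), the liver with the highest length correlation (0.393).

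Carriers varied together in part. Of 45 pairs, 33 had a positive r across the 12 livers (median 0.37, range -0.50 to 0.83). Alb and Trf gave r = 0.83 (permutation p = 0.00094, adjusted p = 0.0211 over 45 pairs) and rho = 0.81 (permutation p = 0.00205, adjusted p = 0.0922). Their r was 0.76 without DCHP 2 and DCHP 5, and 0.81 and 0.92 within paternal DCHP and paternal control livers. Ttr and Rbp4 gave r = 0.77 (permutation p = 0.00081, adjusted p = 0.0211), and Rbp4 and Ambp gave r = 0.75 (permutation p = 0.00299, adjusted p = 0.0448). By rho the adjusted p of these pairs was 0.145 and 0.263. As the groups separate for Ttr, its relations were read within groups. Ttr and Gc gave r = 0.90 in paternal DCHP livers (exact permutation p = 0.0236, n = 6) and 0.74 in paternal control livers (exact permutation p = 0.108, n = 6). Ttr and Rbp4 gave 0.72 and 0.35 in the same order (exact permutation p = 0.115 and 0.581). Ttr and Ambp gave 0.97 and -0.17 (exact permutation p = 0.00556 and 0.656). Ttr and Hpx gave 0.92 and 0.16 (exact permutation p = 0.00417 and 0.714). The p-values within groups were not adjusted. With the group means removed, Ttr and Gc gave r = 0.84 (permutation p = 0.00067, adjusted p = 0.00754, n = 12 livers) and rho = 0.88 (permutation p = 0.00031, adjusted p = 0.0081). Without DCHP 4 and DCHP 5 their r was 0.81. On that scale 4 other pairs had an adjusted p of r below 0.05, namely Alb and Trf, Trf and Afm, Ambp and Hpx, and Gc and Ahsg. By rho the adjusted p was 0.0851 for Ambp and Hpx and 0.153 for Gc and Ahsg. The genes of highest r were then picked for each carrier from 12459 tested genes. Over 12 livers such a pick gives high r even among unrelated genes. No p-value was computed, and the genes are listed as a description only. Some had few reads, such as Ggt5, Zfp784 and Gpm6a (means of 1.08, 1.25 and 1.02 CPM). The one whose group-centred log2 CPM was most like that of Ttr was Ube2b (r = 0.90, n = 12 livers), which was also first for Gc (0.92). Srsf1 and Ggt5 followed for Ttr (both 0.87). Rbp4 was closest to Ndufv2, Cox7a2l and Cdo1 (0.97, 0.96 and 0.96), Alb to Gm2a, Eif3a and Zfp784 (0.91, 0.90 and 0.90), Ahsg to Ppib, Zfp622 and Lonrf1 (0.94, 0.91 and 0.90), and Trf to Canx and Hc (0.93 and 0.91). Afm was closest to Dcaf12, Canx and Dpy19l3 (0.94, 0.93 and 0.92), Fetub to Serpina1a, Rplp0 and Eef1a1 (0.92, 0.91 and 0.90), Ambp to Strap, Emg1 and Elp6 (0.92, 0.91 and 0.90), Gc next to Olfr365 and Crip2 (0.90 and 0.89), and Hpx to Apcs, Gpm6a and Atp6ap2 (0.92, 0.91 and 0.88).

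The other carriers of plasma gave 1 called gene of 14 tested. Serpina6 encodes corticosteroid-binding globulin, and it fell to 116, 125 and 151 CPM (lowest, median and highest) in paternal DCHP livers, against 195, 261 and 350.1 CPM in paternal control livers. The groups did not overlap, and the log2 fold change was -1.09 ± 0.13 (SE, edgeR adjusted p = 0.00285). No other carrier in this list was called, and its median log2 fold change was 0.13. In this list Hp, the hemoglobin carrier, had 2068 to 6486 CPM in paternal DCHP livers and 1925 to 2489 CPM in paternal control livers (edgeR adjusted p = 0.26). Hp is named here, after its values were seen, because it is the partner of Hpx in clearing red-cell products. Cp, Lrg1 and Orm1 of the same list, also named after their values were seen, had a smaller p than Hp. Their edgeR adjusted p-values were 0.111, 0.142 and 0.174. Cp was above the control range in all 6 DCHP livers, at 874 to 1181 CPM against 702 to 874 CPM, so its groups nearly touched.

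Genes that handle the ligands of Ttr and Rbp4 were then examined. None of 9 thyroid hormone genes was called (median log2 fold change -0.08), and the one with the smallest p was Dio3, the deiodinase that inactivates thyroid hormone, at a log2 fold change of -0.99 ± 0.40 (SE, edgeR adjusted p = 0.207) on 42 counts over the 6 paternal DCHP livers and 85 over the 6 paternal control livers. Of 16 retinoid genes, 1 was called higher and 1 lower (median -0.05). Both encode retinoic acid hydroxylases. Cyp26a1 fell to 6.09, 7.59 and 10.5 CPM (lowest, median and highest) in paternal DCHP livers, against 10, 13.5 and 17.6 CPM in paternal control livers (log2 fold change -0.81 ± 0.16 SE, edgeR adjusted p = 0.0434). Cyp26b1 rose to 10.7, 11.8 and 17.6 CPM in paternal DCHP livers, against 3.46, 5.75 and 13.4 CPM in paternal control livers (log2 fold change 0.96 ± 0.27 SE, edgeR adjusted p = 0.0961). The 2 hydroxylases moved in opposite directions, each with 1 or more livers in the overlap. The Cyp26b1 call was lost in 21 of 27 alternatives (adjusted p up to 0.209) and that of Cyp26a1 in 2 (without control 3, and without DCHP 4 and DCHP 5, up to 0.132). For the ligands of Gc and Afm, none of 5 vitamin D and E genes was called (median -0.05), Cyp2r1, the vitamin D 25-hydroxylase, having the smallest p (log2 fold change -0.20, edgeR adjusted p = 0.396).

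**Figure D5:**
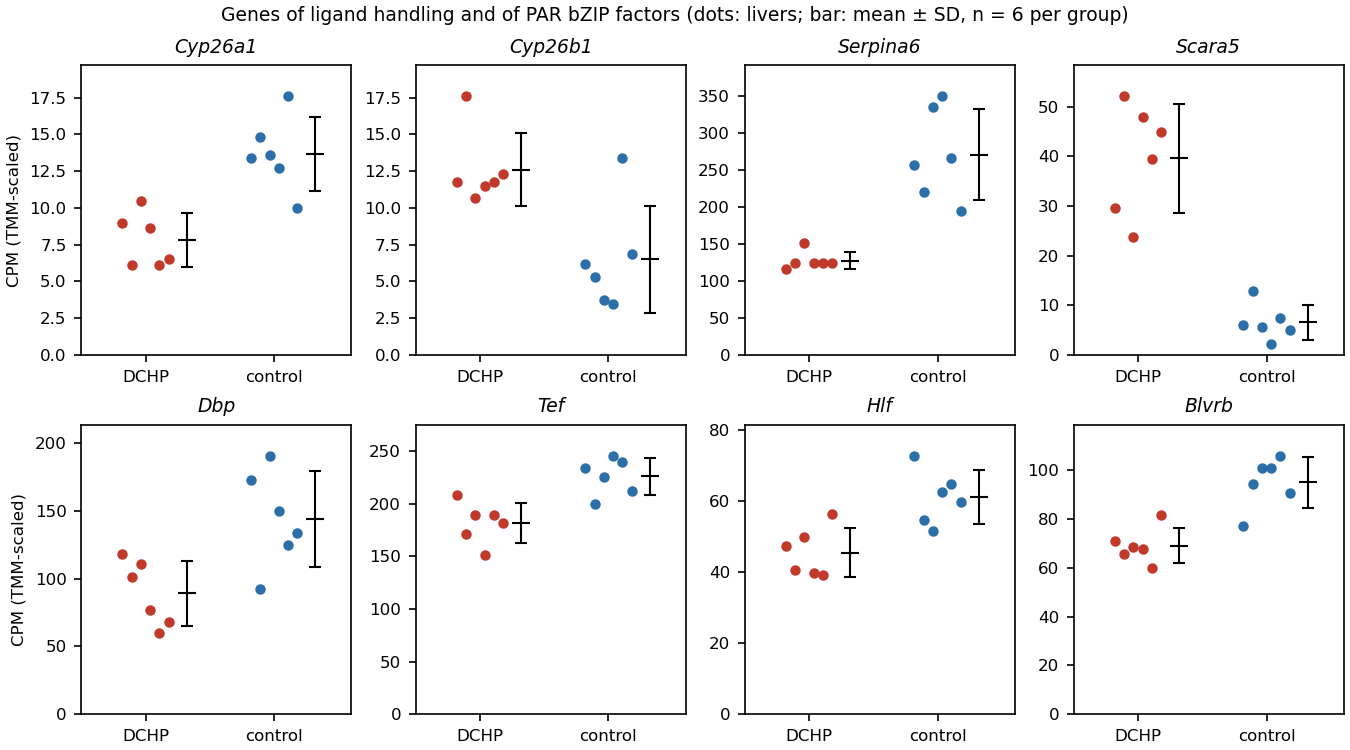
Normalised read count (CPM, TMM-scaled, from 0) of genes of ligand handling and of the PAR bZIP factors in the 12 livers, paternal DCHP left and paternal control right; dots are livers and bars are mean ± SD (n = 6 per group). Serpina6 (at most 151 against at least 195 CPM) and Scara5 separate the groups, while Cyp26a1, Cyp26b1, Dbp, Tef, Hlf and Blvrb overlap.

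Among 17 heme and iron genes around Trf, Hpx and Ambp, 1 was called higher and none lower (median 0.00). Scara5, a ferritin receptor, rose to 39.6 ± 11 CPM in paternal DCHP livers, against 6.56 ± 3.54 CPM in paternal control livers (SD, n = 6 each), without overlap (log2 fold change 2.59 ± 0.32 SE, edgeR adjusted p = 0.00285). Blvrb, a biliverdin reductase named after its values were seen, was below FDR 0.1 at less than 1.5-fold, with a log2 fold change of -0.46 ± 0.09 (SE, edgeR adjusted p = 0.0434). None of the 5 inter-alpha-trypsin inhibitor heavy chain genes tested was called, although all 5 log2 fold changes were positive (median 0.35). Bikunin is joined to some proteins of this family, not to all. Itih4 was among the 5 and also stood in the acute-phase list. Itih3 had 385 ± 49.9 CPM in paternal DCHP livers and 297 ± 26.8 CPM in paternal control livers (SD, n = 6 each, edgeR adjusted p = 0.0734), which was below FDR 0.1 but under 1.5-fold. Ambp itself leaned the other way (-0.12). None of 4 cystatin-family genes related to the fetuins was called (median -0.12), with the smallest p at Hrg, histidine-rich glycoprotein (-0.18, edgeR adjusted p = 0.281). None of 4 receptor genes was called (median -0.21), namely Fcgrt, Asgr1, Asgr2 and the insulin receptor Insr. Insr had the 1 positive log2 fold change of the list (0.17). Fcgrt, the receptor that rescues albumin from degradation, had 167 ± 9.98 CPM in paternal DCHP livers and 192 ± 11.8 CPM in paternal control livers (SD, n = 6 each, edgeR adjusted p = 0.127).

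Of 17 transcription factors with roles in hepatocyte or carrier gene expression, 1 was called lower and none higher (median 0.05). Dbp, the albumin D-site binding protein, fell to 60.2, 89.1 and 118 CPM (lowest, median and highest) in paternal DCHP livers, against 92.2, 142 and 191 CPM in paternal control livers (log2 fold change -0.69 ± 0.19 SE, edgeR adjusted p = 0.0904). Its call was lost in 18 of 27 alternatives (adjusted p up to 0.273). The other PAR bZIP factors, Tef and Hlf, named after their values were seen, were below FDR 0.1 at less than 1.5-fold. Tef had 182 ± 19.1 CPM in paternal DCHP livers and 226 ± 17.4 CPM in paternal control livers, and Hlf had 45.6 ± 6.89 CPM in paternal DCHP livers and 61.2 ± 7.55 CPM in paternal control livers (SD, n = 6 each, edgeR adjusted p = 0.0807 and 0.0734). These factors cycle with time of day in liver, and the hour of collection was not given for the livers. The C/EBP genes of this list, Cebpa, Cebpb and Cebpd, did not share 1 direction. Their log2 fold changes were -0.16, -0.04 and 0.50 (edgeR adjusted p = 0.509, 0.896 and 0.251). Nfil3, also in the list, had 0.74 (edgeR adjusted p = 0.195). These 4 were likewise named after their values were seen. Alb, whose window holds 2 TTATGTAA matches, had a log2 fold change of 0.07 with a 95% interval of -0.18 to 0.33. Those matches were not identified as the D site for which Dbp is named. None of 16 secretory pathway genes was called (median 0.08). Sec24d, a cargo adaptor of vesicles leaving the endoplasmic reticulum, was below FDR 0.1 at less than 1.5-fold, with 102 ± 7.16 CPM in paternal DCHP livers and 78.8 ± 9.53 CPM in paternal control livers (SD, n = 6 each, log2 fold change 0.37 ± 0.084 SE, edgeR adjusted p = 0.0575).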

How the data were processed

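Liver RNA of 12 F1 males was isolated with TRIzol and sequenced with standard Illumina libraries. The values the authors deposited are estimated counts, 1 row for each gene symbol and 1 column for each liver, and 43.6% of them were not whole. Processing notes name the mm10 build, and no source used here names the aligner, the counter or the use of strand. The carrier genes and the 11 other gene lists were chosen with earlier results of these data known.

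Counts were rounded and filtered with filterByExpr (minimum count 10), scaled by TMM and tested with edgeR 4.0.16 in R 4.3.3 (quasi-likelihood F test, no covariate, all 12 livers, 6 per group). P-values were adjusted by Benjamini-Hochberg over all 12459 tested genes, and genes with FDR below 0.1 and fold change above 1.5 were called, as in the study. SE was the log2 fold change over the square root of F, and log2 CPM used a prior count of 2. Correlations used 100000 permutations, or all permutations within groups of 6. Lengths, GC content and positions were from GENCODE M21 (99.3% of tested symbols matched), and start-site windows from RefSeq GRCm38.p6. Carrier genes are all described. From each other list up to 4 called genes of smallest p were named, or the tested gene of smallest p, and for each carrier the 3 genes of highest r. Some results are not reported here.

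Alternatives covered other scaling factors and filters, DESeq2 1.42.0, limma 3.58.1 voom, sva 3.50.0, a replicate block, removal of a length and GC trend, and leaving out each liver. Livers of 1 group were not 1 library deposited again (chi-square per degree of freedom at least 17.4 over 30 pairs). Library totals were 23794752 to 30445332 counts, and each carrier had at least 3013 counts in each liver.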

Additional observations from a re-analysis of the deposited data

Results flagged for a closer look

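Of 62 groups of 6 livers examined, 7 held 1 liver far from the others by Dixon's criterion (critical value 0.625), where chance gives about 1 in 20. Among the carriers this was Fetub alone, at 224 CPM in DCHP 3 against 318 to 372 CPM in the other paternal DCHP livers. Serpina6 was 151 CPM in the same liver, against 116 to 125 CPM in the others of its group. Cyp26b1 was 17.6 CPM in DCHP 2, against 10.7 to 12.3 CPM in the other paternal DCHP livers, and 13.4 CPM in control 5, against 3.46 to 6.89 CPM in the other paternal control livers. Steap4 was 897 CPM in DCHP 4, against 154 to 339 CPM, and the acute-phase score of that liver was 1.74, against -0.0801 to 0.24. The mitochondrial share of counts was 8.03% in DCHP 5, against 5.22 to 5.86% in the other paternal DCHP livers.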

How the results depend on the processing

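In 27 alternative fits all carriers but Ttr kept their side of the threshold, and Ttr lost FDR below 0.1 in 8 of them. Gc reversed to 0.00 with a filter of 1 CPM and to 0.06 with the length and GC trend removed, and leaving out 1 liver gave -0.03 to 0.01. Fetub reversed to 0.02 with that trend removed, and leaving out 1 liver gave -0.09 to 0.04. Ttr was -0.29 with the replicate block (edgeR adjusted p = 0.189), -0.21 with the trend removed and -0.30 without DCHP 4 and DCHP 5, a choice made after seeing the data, and leaving out 1 liver gave -0.31 to -0.27. No carrier was called in any fit, and 1 passed FDR below 0.1 at any fold. Genes called numbered 159, and 102 with total counts only, 326 with DESeq2, 59 with the replicate block, 74 with 1 surrogate variable, 103 with the trend removed, 9 without DCHP 4 and DCHP 5, 36 at FDR below 0.05 and 479 at any fold, while leaving out 1 liver gave 7 to 233. The lower counts include 7 without control 3. Calls were 120 higher and 39 lower (75.5% higher), 74 and 43 with limma-voom (63.2%) and 67 and 36 with the trend removed (65%). Over the 11 other lists 11 genes were called, and 6 with total counts only, 7 without a filter, 7 with limma-voom, 6 with its quality weights, 4 with robust dispersion, 3 with the replicate block, 3 with 1 surrogate variable, 5 without DCHP 1 and DCHP 4, 2 without DCHP 4 and DCHP 5 and 3 at FDR below 0.05, while leaving out 1 liver gave 2 to 12. Acute-phase calls ranged from 0 to 8 and were 0 with the replicate block, with 1 surrogate variable and without any 1 of control 1, 3, 4, 5 or 6. Carrier pairs with an adjusted p of r below 0.05 numbered 3, and 5 with group means removed. The replicate numbers did not pair the livers (correlations of deviations -0.12 to 0.17, 1 of 6 livers matching its own number best). Serpina6 and Scara5 stayed called throughout (adjusted p at most 0.0473). The cause of these shifts was not tested. At these depths counting error is small for the carriers.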
